A study of Oncorhynchus mykiss with 43 samples.

Results

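The clones described here were raised in fast muscle of rainbow trout 4, 7 and 11 days after food was given again and lay near the level of fasted trout at 36 days. They were chosen by their values. A clone needed a value in 5 or more trout of each group, a mean log2 level at least 0.3 above that of fasted trout at 4, 7 and 11 days, and a mean less than 0.2 above it at 36 days. Of 9023 clones on the array, 1561 had enough values, 108 met the early condition and 40 of these met the late one. After 3 clones named in the rule had been left out, 37 remained. These are called members below, and every difference from fasted trout given for them is a description of how they were chosen and carries no test. A ratio to fasted trout is the difference of mean log2 values turned into a fold.

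All 43 trout (Oncorhynchus mykiss, a spring strain, 1 year old) had gone without food for a month. In the fasted group muscle was taken at that point from 8 trout, and the refed groups were trout of the same stock fed again, above the usual ration, for 4 days (9 trout), 7 days (9 trout), 11 days (8 trout) or 36 days (9 trout). There was no group that was never fasted, and water temperature fell as sampling went on, so that day, feeding and temperature cannot be told apart. RNA of a slice of fast muscle under the dorsal fin of each trout was labelled with 33P and hybridised to a nylon array of its own, and a value is the spot signal relative to the vector signal of the spot and to the median of the array. The arrays listed 1441 to 2616 clones with a value. Clones labelled as proteins of the skeletal muscle sarcomere (nebulin, troponin C, myosin light chains, actin and tropomyosin) had values in 12 to 43 trout, and 4 of these 8 clones had one in every trout. In a slice of tissue, more RNA per fibre and a larger share of the cells that hold it cannot be told apart.

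Muscle that resumes growth has to make protein again. New ribosomes are assembled in the nucleolus, where small guide RNAs held by proteins such as NOP5 direct the modification of ribosomal RNA. Messenger RNA is spliced by small nuclear ribonucleoproteins and exported, initiation factors bring it to the ribosome, chaperones fold the new chains, and the respiratory chain and ATP synthase of the mitochondrion supply the energy.

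The deposited table names clones and no genes. A protein name could be given to 11 members, from clone labels that the study printed in its heat maps, and 26 members stay unnamed. The study took its names from BlastX comparison of trout contigs with Swiss-Prot proteins. A name thus marks similarity to a known protein, and the identity of the clones was not checked here. The study drew those clones because they differed between these trout, so the names describe the named members and not how often a function occurs among all members. The 11 names cover folding (3 clones), splicing and ribonucleoprotein assembly (2 clones), other RNA binding and export (2 clones), the mitochondrion (2 clones), translation (1 clone) and the nucleolus (1 clone). Of 289 labelled clones in 12 lists by function, 97 had enough values. Another 58 had no value on any array in the deposited table, although the study drew them in its heat maps. No member came from the lists for transcription (8 clones with enough values), ribosomal proteins (1) or cell division and chromatin (6). Nor did any come from those for reticulum and Golgi (4), cytoskeleton and sarcomere (16) or protein degradation (16). Members were 37 of all 1561 clones tested, so absence from lists this short says little. The study also drew its degradation clones as high in fasted trout and its sarcomere clones as rising later, from these same trout.

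Over the 37 members the median ratio to fasted trout was 1.41-fold at 4 days, 1.36-fold at 7 days and 1.38-fold at 11 days, and at 36 days the median stood at 1.04-fold. Over all 1561 clones tested the same medians were 0.983, 0.984, 1.01 and 0.965. Single members stood higher than in fasted trout by 0.30 to 0.89 on the log2 scale at 4 days, by 0.30 to 0.86 at 7 days and by 0.30 to 0.83 at 11 days. At 36 days they ranged from 0.27 below to 0.20 above fasted trout, 26 above and 11 below. The highest of the early means fell at 4 days in 11 members, at 7 days in 14 and at 11 days in 12. Over all 1561 clones tested the same counts were 550, 286 and 725. Another 68 clones that met the same early condition but stayed at 0.2 or more at 36 days had larger early medians (0.60, 0.72 and 0.72 on the log2 scale) and a median of 0.55 at 36 days.

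**Figure D1:**
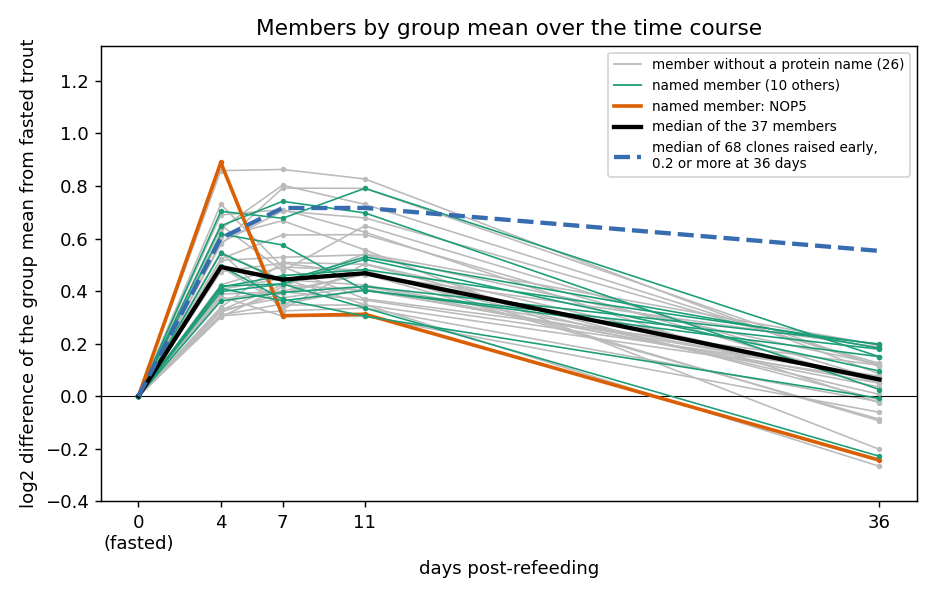
Mean log2 difference from fasted trout (vertical axis) against days post-refeeding (horizontal axis) for each of the 37 members, 11 of them named, with the median of the members (black) and of the 68 clones that stayed raised (dashed blue). The black line runs between 0.44 and 0.49 from 4 to 11 days and ends at 0.06. NOP5 (orange) starts at 0.89 and is at 0.31 by 7 days.

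The nucleolar protein NOP5 (clone tcbk0025.f.22), a core protein of the particles that guide methylation of ribosomal RNA, had the largest ratio to fasted trout of all members at 4 days. Its lowest, median and highest values were 1.66, 2.05 and 2.54 in 8 fasted trout. They were 2.21, 3.82 and 5.48 at 4 days (n = 9), 1.84, 2.69 and 3.45 at 7 days (n = 9) and 2.08, 2.62 and 3.16 at 11 days (n = 8). At 36 days the values of 7 trout were 1.18, 1.75 and 2.22, and none exceeded the highest fasted trout. NOP5 thus stood highest at 4 days, where 8 of 9 trout lay above every fasted trout, against 5 of 9 at 7 days and 6 of 8 at 11 days. The ratio to fasted trout was 1.85-fold at 4 days and 1.24-fold at both 7 and 11 days, and the mean at 36 days was 0.844 times that of fasted trout.

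Among chaperones, 2 members carried the name T-complex protein 1, theta subunit, a part of the ring-shaped chaperonin of the cytosol that folds actin and tubulin. For clone 1RT36F13_B_C07 the lowest, median and highest values were 3.24, 3.75 and 5.20 in 8 fasted trout. With refeeding they were 4.85, 6.43 and 7.62 at 4 days (n = 9), 3.89, 6.40 and 8.46 at 7 days (n = 9) and 6.01, 6.75 and 7.75 at 11 days (n = 8). Values came to 2.63, 4.84 and 5.77 in 8 trout at 36 days. Its ratio to fasted trout was 1.63-, 1.60- and 1.73-fold at the 3 early times and 1.11-fold at 36 days, and at 11 days 8 of 8 trout lay above every fasted trout. The other theta clone, tcay0033.j.13, had 2.66, 2.92 and 3.34 in 6 fasted trout and smaller ratios. Its values were 3.24, 3.77 and 4.41 at 4 days (n = 8), 3.41, 3.70 and 4.79 at 7 days (n = 8) and 3.17, 3.99 and 4.73 at 11 days (n = 8), with 3.04, 3.24 and 4.11 in 6 trout at 36 days. All 8 trout with a value at 7 days lay above the fasted trout, and its ratio was 1.29-, 1.31- and 1.34-fold, with 1.15-fold at 36 days. Both theta clones were thus highest at 11 days by their means. Whether they stem from 1 gene or from copies is not known here. The study's labels hold 6 clones of T-complex protein 1 subunits with enough values, of which these 2 are members. Zeta was 0.10, 0.25 and 0.42 above fasted trout on the log2 scale and gamma 0.43, 0.37 and 0.22, so that each missed the early condition, while alpha was still 0.79 above fasted trout at 36 days. The remaining clone of these subunits met the early condition and lay just above the late limit.

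The third folding member was named probable heat shock protein ssa1 (clone tcbk0040.d.23), after a yeast chaperone of the Hsp70 family. Its lowest, median and highest values were 0.879, 1.09 and 1.18 in 6 fasted trout. They came to 1.19, 1.61 and 2.02 at 4 days (n = 9), 1.15, 1.57 and 2.15 at 7 days (n = 9) and 1.15, 1.31 and 1.58 at 11 days (n = 7), and to 1.03, 1.20 and 1.38 in 6 trout at 36 days. Every trout at 4 days lay above the highest fasted trout, as did 8 of 9 at 7 days and 6 of 7 at 11 days. Its ratio to fasted trout was 1.53-, 1.49- and 1.32-fold and 1.13-fold at 36 days. Of 12 chaperone clones with enough values, 8 met the early condition, beside 108 of all 1561 clones. The study drew these 12 because they differed between these trout. Their median was 0.66, 0.57, 0.46 and 0.19 on the log2 scale at 4, 7, 11 and 36 days.

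Splicing was represented by small nuclear ribonucleoprotein E (clone tcbk0036.i.10), a protein of the ring that surrounds spliceosomal RNA, and by Gem-associated protein 7 (clone tcac0006.c.08), a part of the complex that loads this ring. Ribonucleoprotein E had values of 0.991, 1.30 and 1.54 in 8 fasted trout as lowest, median and highest. It had 1.53, 1.83 and 2.13 at 4 days (n = 9), 1.30, 1.78 and 2.24 at 7 days (n = 9) and 1.17, 1.88 and 2.29 at 11 days (n = 8). At 36 days its 7 values were narrow, at 1.34, 1.40 and 1.54. The 4-day and fasted groups overlapped in a single trout, and the ratio to fasted trout was 1.46-, 1.35- and 1.44-fold, with 1.13-fold at 36 days.

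Gem-associated protein 7 had 1.05, 1.43 and 2.06 in 8 fasted trout as lowest, median and highest, and 1.38, 1.97 and 2.28 at 4 days (n = 9), 1.61, 1.96 and 2.38 at 7 days (n = 9) and 1.41, 1.84 and 2.38 at 11 days (n = 8). Its 36-day values, 1.13, 1.23 and 1.37 (n = 9), all lay below the lowest trout at 4 days. The early groups overlapped the fasted group widely, with 4 of 9, 4 of 9 and 1 of 8 trout above it. Its ratio to fasted trout was 1.34-, 1.34- and 1.26-fold, and its mean at 36 days was 0.853 times that of fasted trout, so that with NOP5 it was 1 of the 2 named members lower than in fasted trout by more than 0.2 on the log2 scale. All 4 splicing clones with enough values met the early condition, beside 108 of all 1561 clones. The study drew such clones because they differed between these trout, so this count is no independent evidence. The 2 that are not members, U2AF 35 kDa subunit and splicing factor 3A subunit 2, were still 0.24 and 0.37 above fasted trout at 36 days.

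Other RNA-binding members were THO complex subunit 4 (clone 1RT30O18_C_H09), an adaptor for export of messenger RNA, and scaffold attachment factor B (clone tcba0002.c.03), a nuclear protein that binds DNA and RNA. For THO subunit 4 the lowest, median and highest values were 2.30, 2.59 and 3.25 in 8 fasted trout, and 2.94, 3.56 and 3.97 at 4 days (n = 9), 2.77, 3.48 and 3.97 at 7 days (n = 9) and 3.06, 3.56 and 3.76 at 11 days (n = 8). They were 2.61, 2.81 and 3.54 at 36 days (n = 9). Its groups lay close together, with 7 of 9, 6 of 9 and 7 of 8 early trout above every fasted one. Its ratio to fasted trout was 1.33-, 1.29- and 1.32-fold, with 1.11-fold at 36 days.

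Scaffold attachment factor B was likewise close to the fasted level at 36 days. Its lowest, median and highest values were 0.722, 0.774 and 0.913 in 7 fasted trout, and 0.915, 1.16 and 1.52 at 4 days (n = 9), 0.826, 1.01 and 1.49 at 7 days (n = 8) and 0.868, 0.966 and 1.20 at 11 days (n = 8). At 36 days its values were 0.620, 0.830 and 0.878 (n = 7), back in the fasted range but for the lowest trout. All 9 trout at 4 days lay above the fasted group and all 7 trout at 36 days below the 4-day group, and the ratio to fasted trout was 1.41-, 1.29- and 1.23-fold, with 0.994 at 36 days. Polyadenylate-binding protein 2 and heterogeneous nuclear ribonucleoprotein I, of the same list, were 0.37 and 0.35 above fasted trout at 4 days but less than 0.3 above at 7 and 11 days. Fragile X mental retardation syndrome-related protein 2, also of this list, was 0.96, 1.23 and 1.08 above at the early times and 0.23 above at 36 days.

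In the mitochondrial list 2 of 14 clones with enough values were members. NADH-ubiquinone oxidoreductase chain 1 (clone tcay0032.p.08), a subunit of complex I that the mitochondrial genome encodes, had lowest, median and highest values of 1.95, 2.86 and 4.39 in 8 fasted trout. They were 3.77, 4.79 and 5.22 at 4 days (n = 9), 3.98, 4.58 and 6.85 at 7 days (n = 9) and 3.79, 4.86 and 6.18 at 11 days (n = 8). At 36 days they were 1.62, 3.15 and 3.98 (n = 9), and no trout exceeded the highest fasted one. All 3 early groups overlapped the fasted group, with 6 of 9, 6 of 9 and 5 of 8 trout above it. The ratio was 1.57-, 1.67- and 1.62-fold and ended at 1.02-fold, or 0.03 on the log2 scale. Of 4 clones with enough values labelled as subunits that the mitochondrial genome encodes, chain 1 was the only member. Chain 2 was 0.88, 0.88 and 0.90 above fasted trout at the early times and still 0.33 above at 36 days, chain 4 was at 0.22 by 36 days, and cytochrome c oxidase subunit 3 was 0.14 above at 4 days.

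ATP synthase alpha chain (clone tcbk0005.o.07), of the catalytic head of the enzyme, had lowest, median and highest values of 0.987, 1.43 and 1.88 in 8 fasted trout, and 1.36, 1.99 and 2.43 at 4 days (n = 9), 1.27, 2.09 and 2.62 at 7 days (n = 9) and 1.53, 2.07 and 2.59 at 11 days (n = 8). It had 1.32, 1.51 and 2.28 in 9 trout at 36 days. All 5 groups overlapped. Its ratio to fasted trout was 1.33-, 1.37- and 1.40-fold and 1.15-fold at 36 days, which is just inside the limit. The other 3 ATP synthase clones with enough values, of which 2 were of the beta and 1 of the gamma chain, were 0.18 to 0.24 above fasted trout at 4 days and 0.44 to 0.51 above at 11 days, so that none met the early condition.

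Translation was represented by eukaryotic translation initiation factor 4 gamma 1 (clone 1RT29L08_D_F04), the scaffold that joins the cap-binding protein to the ribosome. Its lowest, median and highest values were 0.912, 1.07 and 1.40 in 6 fasted trout, and 1.24, 1.42 and 1.72 at 4 days (n = 8), 1.22, 1.48 and 1.64 at 7 days (n = 8) and 1.28, 1.56 and 1.90 at 11 days (n = 8). They were 0.969, 1.14 and 1.37 at 36 days (n = 8), inside the fasted range. It had 5 of 8, 6 of 8 and 7 of 8 early trout above the fasted group and ratios of 1.32-, 1.34- and 1.44-fold, with 1.07-fold at 36 days. Of the same list, 5 of 9 clones with enough values met the early condition, beside 108 of all 1561 clones. The study drew these 9 because they differed between these trout, so the count is no independent evidence. The rule left out 2 of the 5 by name, although their values met it in full. Initiation factor 1A and glutaminyl-tRNA synthetase met the early condition and stood at 0.34 and 0.30 at 36 days. Elongation factor 1-alpha met it at 4 and 7 days only (0.43, 0.33 and 0.27). The single ribosomal protein clone with enough values, 40S protein S19, was at 0.16, 0.24 and 0.22.

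Of the unnamed members, tcav0002.c.11 and tcba0005.k.02 had the largest mean early difference. Clone tcav0002.c.11 had a value in 5 fasted trout, the fewest the rule admits (2.85, 3.10 and 3.52 as lowest, median and highest). It had 4.43, 5.53 and 7.00 at 4 days (n = 9), 3.58, 5.84 and 7.54 at 7 days (n = 9) and 4.12, 5.57 and 6.79 at 11 days (n = 8). At 36 days the values were 1.73, 3.48 and 4.21 (n = 9), all below the 4-day group. Its ratio to fasted trout was 1.81-, 1.82- and 1.77-fold, with 1.06-fold at 36 days. Clone tcba0005.k.02 had 0.642, 0.697 and 0.829 in 7 fasted trout, then 0.982, 1.08 and 1.22 at 4 days (n = 9), 0.993, 1.26 and 1.43 at 7 days (n = 9) and 0.838, 1.13 and 1.64 at 11 days (n = 8), and 0.645, 0.750 and 1.01 in 6 trout at 36 days, with ratios of 1.56-, 1.74- and 1.66-fold and 1.08-fold. These were the 2 members in which every trout of all 3 early groups lay above every fasted trout, which held for 1.15% of the 1561 clones tested.

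**Figure D2:**
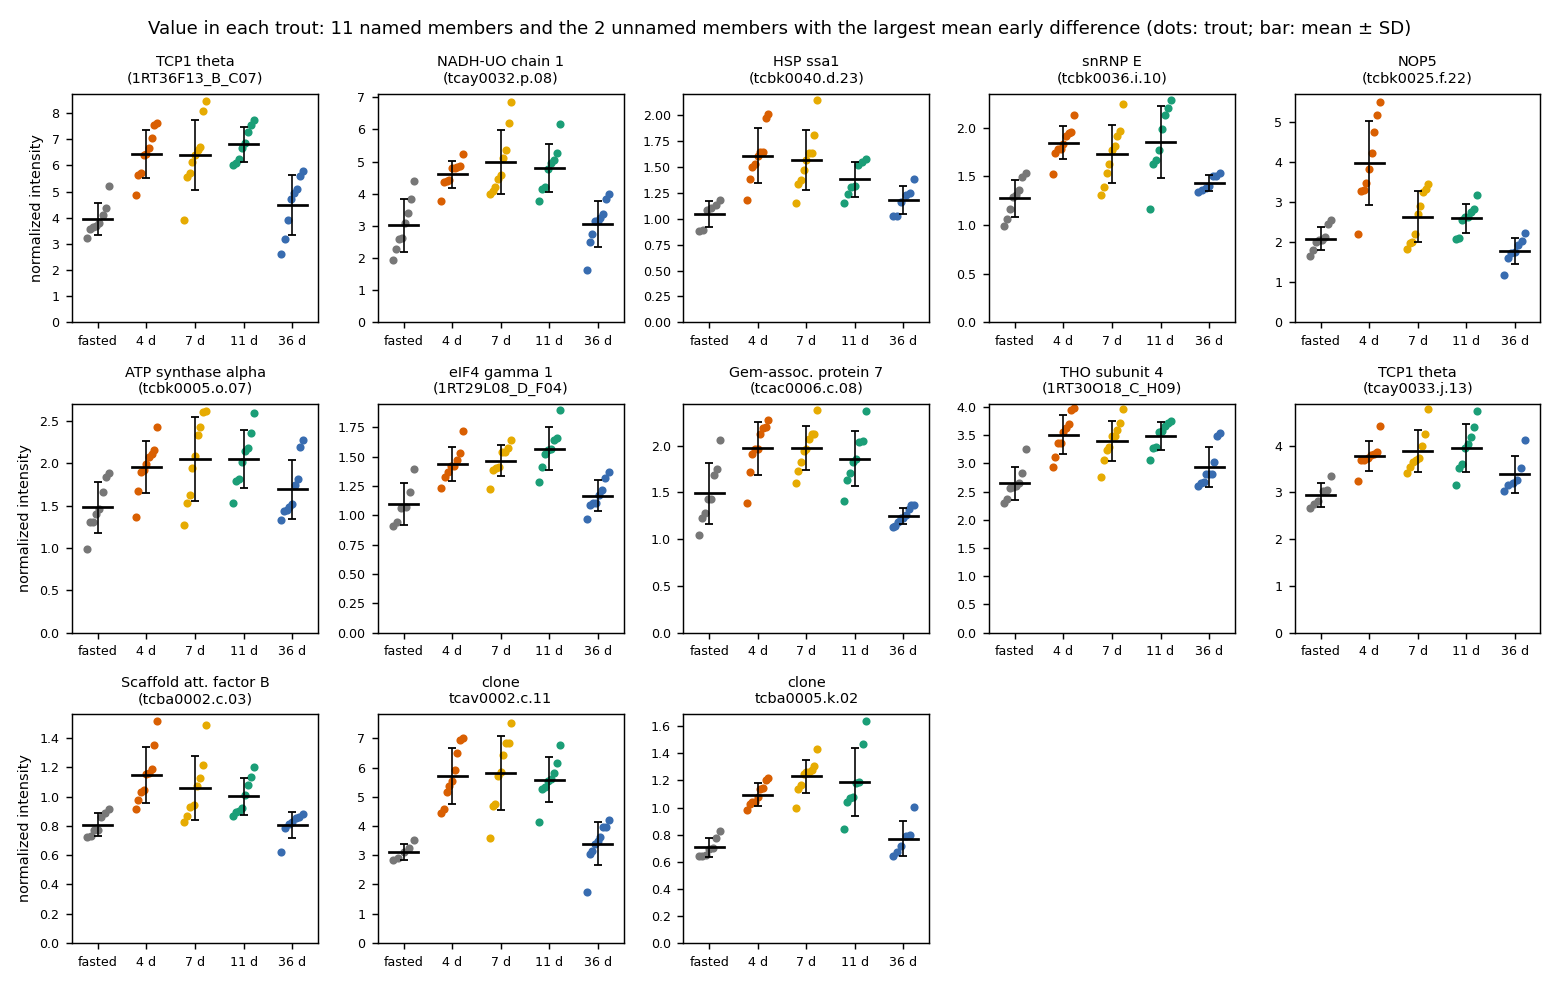
Normalized intensity (vertical axis) in each trout (dots) by group (horizontal axis) for the 11 named members and the 2 unnamed members with the largest mean early difference, with the group mean and SD (black). Every 4-day trout of NOP5 but 1 lies above the highest fasted value of 2.54, and the 7-day and 11-day trout lie nearer to the fasted group.

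Counted over all 37 members, the groups did not overlap in 10 members at 4 days against fasted trout (27.0% of members, 3.14% of all clones tested), in 8 at 7 days (21.6%, 3.14%) and in 5 at 11 days (13.5%, 4.74%). At 36 days no member had all trout above the fasted group (3.65% of all clones). Early trout all lay above the 36-day group in 6 members at 4 days, 4 at 7 days and 5 at 11 days, where 2.63%, 1.92% and 1.28% of all clones did. The rule used these contrasts, and nothing is read from the counts.

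The mean over the members that had a value, taken in each trout as the log2 difference from the fasted mean, was 0.50 ± 0.07 (SD, n = 9) at 4 days, 0.50 ± 0.09 (n = 9) at 7 days, 0.50 ± 0.11 (n = 8) at 11 days and 0.04 ± 0.14 (n = 9) at 36 days, with an SD of 0.08 among the 8 fasted trout. Early trout ran from 0.30 to 0.67, above the highest trout at 36 days (0.21) and the highest fasted trout (0.09), a gap that the choice of members fixes. The 36-day group had the widest spread, from -0.27 to 0.21. Its lowest trout, replicate 3, had values for 33 members. Without that trout the rule kept 33 clones, 30 of them members.

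**Figure D3:**
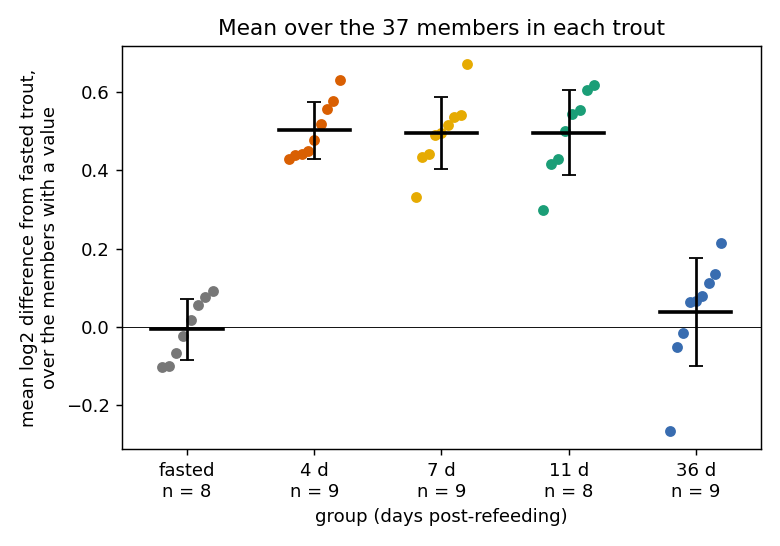
Mean log2 difference from fasted trout over the members with a value (vertical axis) in each trout (dots) by group (horizontal axis), with the group mean and SD (black). Early trout lie between 0.30 and 0.67 and trout at 36 days between -0.27 and 0.21.

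The rule did not ask how many cells were empty beyond its minimum of 5 trout. Among the members 88 of 1591 cells had no value, 2 of which were listed as 0. They lay mostly in the groups where the members were low. In fasted trout 10.1% of the members' cells had no value and at 36 days 11.4%, against 1.80% at 4 days, 3.00% at 7 days and 1.35% at 11 days. Over all 1561 clones the share was 5.70% in fasted trout, 6.00%, 5.69% and 5.24% at the early times and 7.87% at 36 days. Group means rest on the trout with a value, and the part of the empty cells in the differences was not tested. Values were listed in all 43 trout for 10 members (27.0%), against 44.7% of the clones tested and 50% of the 68 clones that stayed raised. The members were also weaker spots. The median over clones of the mean fasted value was 1.80 in the members, 2.57 in those 68 clones and 3.04 in all clones tested.

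**Figure D4:**
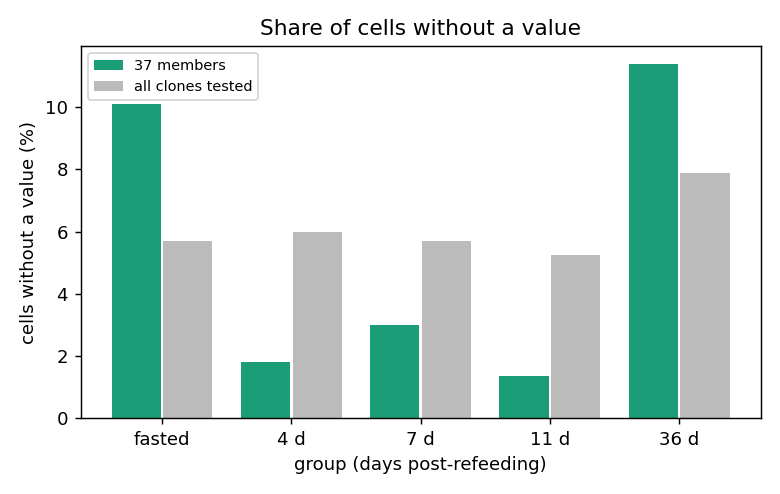
Share of cells without a value (vertical axis, percent) in each group (horizontal axis) for the 37 members (green) and all 1561 clones tested (grey). The members' share is 10.1% in fasted trout and 11.4% at 36 days, and between 1.35% and 3.00% in the early groups.

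Between the early groups NOP5 was the single member that passed the adjusted threshold. It fell by 0.58 on the log2 scale from 4 to 7 days (SE 0.14, 95% interval -0.87 to -0.30, limma adjusted p = 0.0475). From 4 to 11 days it fell by 0.58 (SE 0.14, -0.87 to -0.29, limma adjusted p = 0.00803). Between 7 and 11 days the difference was 0.01 (-0.29 to 0.30, limma adjusted p = 1.00). At 7 and at 11 days NOP5 stood 0.31 above fasted trout, just over the early limit of 0.3. The rule would have left it out had it fallen much further, and so bounds the size of both falls. The fall to 7 days rests on a narrow margin. With each trout left out in turn its adjusted p ranged from 0.00485 to 0.136 and lay above 0.05 in 21 of 43 cases. These were the omissions of fasted replicates 3, 6 and 8, 4-day replicates 2, 3, 4, 5, 6, 8 and 10, 7-day replicates 2, 4, 5, 7 and 9, 11-day replicates 2, 4, 5 and 10 and 36-day replicates 7 and 9. Without the 5 arrays with the fewest values it was 0.0932. The fall to 11 days kept an adjusted p between 0.000795 and 0.0223 under all of these omissions of a single trout. In the nucleolar list both clones with enough values were called lower at 11 than at 4 days, beside 1.28% of all clones. The other was 1 of the 3 that the rule left out by name. The study describes most of its genes for ribosome assembly as peaking at 4 days in these same trout, so the count is no independent evidence.

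These contrasts, whose differences do not use the mean of fasted trout, were fitted with limma over all 1561 clones. All groups shared 1 estimate of the spread, so fasted trout and trout at 36 days do bear on the intervals and p-values. A rule that asks for a higher level at all 3 times favours clones with like levels at the 3, so that a low count of calls among the members is no result about them. From 4 to 7 days, 1 of 37 members, NOP5, passed an adjusted p of 0.05 and was lower (of all clones tested 0.641% were called, 0.192% lower and 0.448% higher). From 4 to 11 days NOP5 again was the single member that passed, as lower (of all clones 6.28% were called, 1.28% lower and 5.00% higher). From 7 to 11 days no member and no clone passed (0% in either direction), and at an unadjusted p of 0.05 there were 0 members and 68 of 1561 clones (4.36%).

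No other member passed in any of the 3 contrasts, which does not show that their levels were alike. From 4 to 7 days 25 members had a higher mean and 12 a lower one, and from 4 to 11 days 18 and 19. Over all clones tested the counts were 818 higher and 743 lower to 7 days, and 881 and 680 to 11 days. At an unadjusted p of 0.05 there were 2 and 3 members, NOP5 included (5.41% and 8.11%, beside 8.46% and 21.2% of all clones). The heat shock protein ssa1 differed by -0.22 from 4 to 11 days (95% interval -0.44 to 0.01, limma adjusted p = 0.254) and by -0.17 from 7 to 11 days (limma adjusted p = 1.00). Scaffold attachment factor B differed by -0.19 from 4 to 11 days (-0.40 to 0.02, limma adjusted p = 0.287). Initiation factor 4 gamma 1 differed by 0.12 over the same days (-0.06 to 0.30, limma adjusted p = 0.472). The unnamed clone tcba0005.k.02 differed by 0.17 from 4 to 7 days (-0.02 to 0.36, limma adjusted p = 0.717). Over the 36 members apart from NOP5 the differences ran from -0.24 to 0.21 from 4 to 7 days and from -0.25 to 0.24 from 4 to 11 days, and over all 37 from -0.17 to 0.17 between 7 and 11 days. Their 95% intervals reached at most from -0.73 to 0.43, -0.57 to 0.51 and -0.40 to 0.71. In 34, 34 and 35 of 37 members the interval lay within 0.5 on either side of 0. That count was not taken over all clones, and the rule favours clones with like levels at the 3 times. Nothing particular to the members is therefore read from it. The median difference of the members was 0.03, 0.00 and 0.00 in the 3 contrasts, beside 0.01, 0.02 and 0.03 over all clones.

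**Figure D5:**
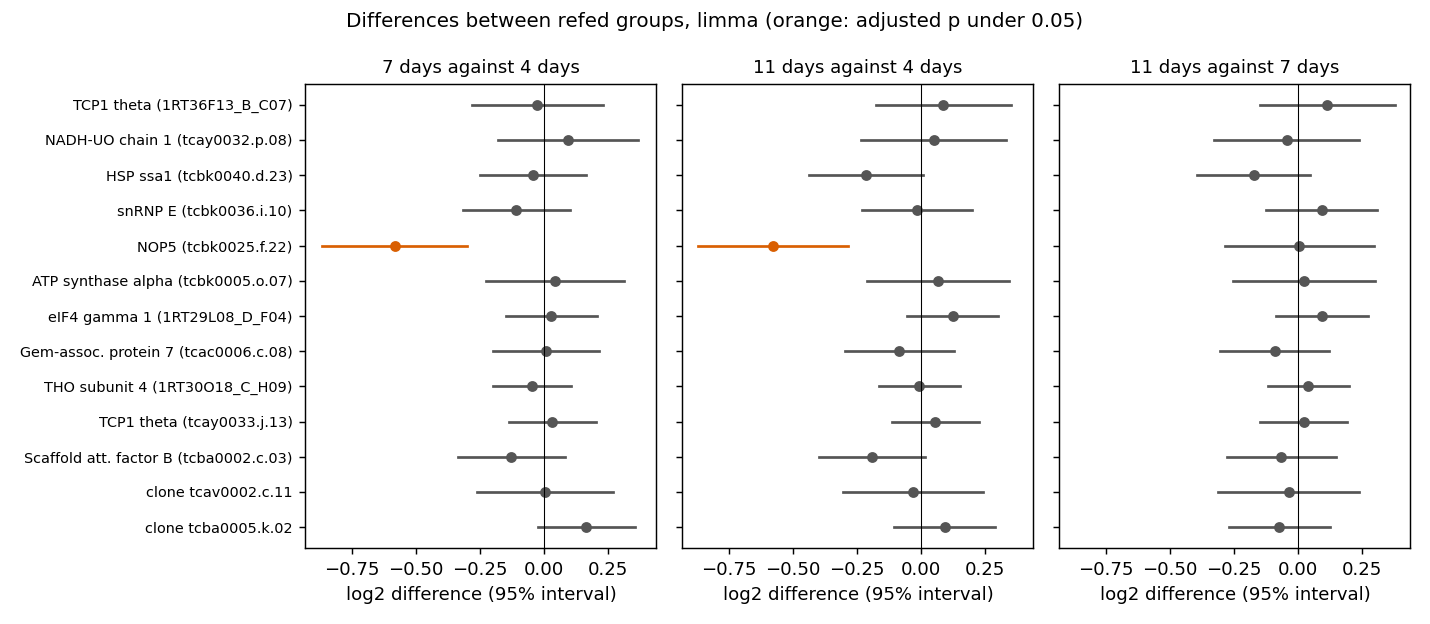
Log2 difference between refed groups (horizontal axis, dot) with its 95% interval (line) for the 13 members described singly (vertical axis), in 3 contrasts. NOP5 (orange) is the only one with an adjusted p under 0.05, at -0.58 in both contrasts with 4 days.

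Other labelled clones were called between 4 and 11 days, when 5.00% of all clones were called higher and 1.28% lower. In the list for cytoskeleton and sarcomere 11 of 16 clones with enough values were called higher at 11 days. Among them were skeletal muscle troponin C (clone 1RT73O02_C_H01, 0.44, limma adjusted p = 0.0102) and myosin light chain 1 (0.38, limma adjusted p = 0.0125). Another troponin C clone, 1RT144L05_B_F03, was not called, at 0.10 above fasted trout at 4 days and 0.41 above at 11 days. The part of these 11 clones in the values of the members was not tested. The study placed its clones for cytoskeleton and sarcomere in a group with later and more sustained induction, formed from these same trout. That choice favours a rise from 4 to 11 days, so the count is no independent evidence. Clones of the other lists were also drawn because they differed between these trout. In the chaperone list 1 of 12 was called higher, the zeta subunit of T-complex protein 1 (0.32, limma adjusted p = 0.0227), and 1 lower. In the translation list 1 of 9 was called higher, glutaminyl-tRNA synthetase (0.41, limma adjusted p = 0.00216). The list for cell division and chromatin had 3 of 6 clones called higher, the transcription list 2 of 8 and the reticulum and Golgi list 1 of 4, and in the protein degradation list 1 of 16 was called lower. In the splicing, other RNA-binding and mitochondrial lists none of 4, 5 and 14 was called in any of the 3 contrasts.

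The limits of the rule cut through a continuous range. The member closest to the early limit had a lowest early difference of 0.30 and the next clone outside it 0.29. At 36 days the member nearest to the limit was the theta clone tcay0033.j.13 at 0.199, and the first clone outside was at 0.217. With each trout left out in turn the rule kept between 30 and 42 clones, and 15 members were kept in all 43 cases. Among the named members NADH-ubiquinone oxidoreductase chain 1, initiation factor 4 gamma 1 and THO subunit 4 were of these 15, while NOP5 dropped out in 11 cases and ATP synthase alpha chain and scaffold attachment factor B in 8 each.

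By the clone names, the members were spread over 35 source plates, with at most 2 on a plate. Names beginning with 1RT made up 48.6% of the members and 48.2% of all clones tested, but 20.6% of the 68 clones that stayed raised at 36 days.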

How the data were processed

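The deposited values are linear intensities. The authors quantified the phosphor imager scans with BZScan, excluded spots with a low vector signal, and scaled each intensity to the vector signal of its spot and to the array's median. The median of the listed clone values still ran from 2.04 to 3.63 between arrays. The table held 9216 rows, of which 193 were not clones. Empty cells and zeros were taken as missing. For the 1561 clones that had values in 5 or more trout per group, limma 3.58.1 under R 4.3.3 fitted a mean of log2 values to each group over all 43 arrays, and p-values were adjusted by Benjamini and Hochberg in each contrast. Calls were made at an adjusted p of 0.05. Python 3.11.15, pandas 2.3.3, numpy 2.4.6, scipy 1.17.1 and matplotlib 3.10.9 served for the rest. The fit was tried on simulated data with independent normal noise, for 11 against 4 days. It called 100 of 100 planted differences of 1 on the log2 scale, 80 of 100 of 0.5, and 4 of 1361 clones without one. The simulation held no correlation between arrays, so it does not show how the fit behaves where arrays share deviations.

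The members, lists and tests were chosen with earlier results of these data known. Described singly were all members with a protein name, the 2 unnamed members with the largest mean early difference, and members called between refed groups. Names were read from the clone labels of the heat maps, and no clone sequences were used here. Other normalizations, filters, fits and limits of the rule were tried, as was leaving out each trout, and the omission of the 5 arrays with the fewest values was chosen after seeing the data. Each array stands for a separate trout. Replicate numbers mark no shared tank or day in the labels and were not taken to pair trout.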

Additional observations from a re-analysis of the deposited data

Results flagged for a closer look

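Groups of 5 to 9 trout were checked for a single value far from the rest, for the 13 members described singly and for the mean over the members. Of 70 groups examined, 2 held such a value, and chance alone gives about 1 in 20. Scaffold attachment factor B had 0.620 in replicate 4 at 36 days, where the next lowest of 7 trout had 0.782. The unnamed clone tcav0002.c.11 had 1.73 in replicate 3 at 36 days, the trout with the lowest mean over the members, where the next lowest of 9 trout had 3.05.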

How the results depend on the processing

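The rule kept 37 clones as deposited. It kept 10 when clones needed a value on all arrays, 84 and 17 with the early limit at 0.2 and 0.4, and 24 with the late limit at 0.1. Quantile normalization gave 30 clones, of which 29 were members, and centring on clones with a value on all arrays gave 27, all members. With medians in place of means the rule again kept 37 clones, but only 26 were members. Leaving out each trout gave 30 to 42.

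The count of clones called from 4 to 7 days depended most on the setting. It was 10 in the fit described, 26 with quantile normalization, 76 with array weights, 3 with an intensity trend and robust variance, 3 with the number of listed values as a covariate, 1 without the 5 arrays with the fewest values and 0 at an adjusted p of 0.0001. With each trout left out it ranged from 1 (without refed 4 days replicate 3, among others) to 31 (without refed 7 days replicate 10). The count of members was 0 in place of 1 with clones on all arrays, only the groups compared, trend and robust variance, the covariate, without the 5 arrays and at 0.0001, and 0 to 1 with each trout left out. NOP5 has no value on some arrays and is not among clones on all arrays. Its difference from 4 to 7 days was -0.58 (limma adjusted p = 0.0891) with only the groups compared, -0.58 (0.0513) with trend and robust variance, -0.58 (0.0522) with the covariate and -0.54 (0.0932) without the 5 arrays, and -0.68 to -0.52 with each trout left out. The cause was not tested.

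From 4 to 11 days 98 clones were called, 64 among clones on all arrays, 221 with array weights and 4 at 0.0001, and 83 to 156 with each trout left out, the highest without refed 11 days replicate 3. Members called were 0 among clones on all arrays and at 0.0001, and otherwise 1. From 7 to 11 days leaving out that same trout gave 2 clones, and no other omission or setting gave a higher count. Of the other 32 differences of the 13 members described singly, that of NOP5 from 7 to 11 days included, 80 of 1676 values under other settings had another sign and 0 were called.

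With the replicate number as a block, 3 clones were called from 4 to 7 days, and NOP5 was called from 4 to 7 and from 4 to 11 days (limma adjusted p = 0.036 and 0.00812). The block changed no call among the members. Deviations from the group mean correlated with a median of 0.15 over 25 same-numbered pairs of early trout (-0.24 to 0.47, 13 over 0.1) and of -0.02 over 200 differently numbered pairs (57 over 0.1). Among the 8 or 9 trout of another early group, a trout correlated best with its own number in 8 of 50 cases. Numbers were those of the sample titles, which run from 2 to 10 at 4 days where the series description has 1 to 9. The study's first figure numbers every refed group from 1, where the titles start at 2. Which trout share a number is therefore uncertain in all refed groups.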
